A study of Mus musculus with 13 samples.

Results

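The 10 genes described here are regulators of the transcription factor NRF2 (5 genes: Nfe2l2, Keap1, Bach1, Mafg and Sqstm1), 4 of its targets in heme breakdown and iron storage (Hmox1, Blvrb, Ftl1 and Fth1) and 1 further target (Osgin1). They were chosen by name, with earlier results of these data known, and stand among 19938 genes measured. Each gene was read from the transcript cluster annotated to it alone. Only Ftl1 had other clusters, 4 in number, each of which also carried the symbols of a pair of microRNA genes.

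The samples were primary mouse embryonic fibroblasts from a commercial source, grown in high glucose medium with serum. The incubator was lowered to 32°C (hypothermia) for 0.5, 1, 2, 4, 8 or 18 h, or stayed at 37°C (normothermia) for the same times, and 1 array at 0 h, at 37°C, starts both series. There are thus 6 arrays at 32°C and 7 at 37°C. The labels give no strain, passage or other agent, and all dishes shared the medium and 5% CO2 in air. Each array was hybridised with the combined RNA of 3 dishes. No array has a replicate, so precision is limited by there being 13 arrays in all.

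NRF2, the product of Nfe2l2, pairs with a small Maf protein such as MAFG and binds antioxidant response elements in the DNA. KEAP1 holds NRF2 in the cytoplasm and delivers it to an E3 ubiquitin ligase, so NRF2 is controlled mostly through its protein and not its mRNA. BACH1 competes for the same elements and represses Hmox1 until heme binds it and releases it from the DNA. SQSTM1 (p62) is an autophagy receptor that binds KEAP1, and its gene is itself a target of NRF2. HMOX1 opens the heme ring and frees iron, carbon monoxide and biliverdin, BLVRB is a reductase of biliverdin and flavins, and FTL1 and FTH1 are the light and heavy chains of ferritin, which stores iron. Ferritin protein is set in large part through translation, by iron regulatory proteins that bind the ferritin mRNAs. OSGIN1 is an NRF2-responsive growth inhibitor.

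The promoters of these genes were searched for the core letters of the antioxidant response element, TGACNNNGC, and for the letters TGANTCA that Maf and BACH factors recognise, on both strands of the 250 bases before each start of transcription (RefSeq sequence, GRCm38.p6). Windows were on hand for 9 of the 10 genes, 11 windows in all, and Hmox1 had none. TGACNNNGC was found in the windows of Nfe2l2 and Mafg, against 10.2% of 32851 mouse promoter windows of the same length. TGANTCA was found in the window of Osgin1, against 6.75% of all windows, and no match of one motif overlapped one of the other in these windows. The windows of Keap1, Bach1, Sqstm1, Blvrb, Ftl1 and Fth1 held neither. The windows with a match are shown with the matching letters in capitals, and the upstream one of Blvrb, without a match, is shown beside them because this gene passed the test described further on. Each runs 5′ to 3′ on the strand of its gene. The match of Nfe2l2 is TGACTCCGC, with its first base 240 bases before the start (chr2:75704664-75704913, minus strand). That of Mafg starts 222 bases before the start (chr11:120633548-120633797, minus strand) and lies on the opposite strand, so that it reads GCACGGTCA in print. That of Osgin1 is TGACTCA, 97 bases before the start (chr8:119436897-119437146, plus strand). The window of Blvrb is chr7:27447728-27447977, plus strand. A match is a match of letters and not evidence of binding. Bases farther from the start were not searched, so a window without a match does not show that its gene lacks an element.
Nfe2l2: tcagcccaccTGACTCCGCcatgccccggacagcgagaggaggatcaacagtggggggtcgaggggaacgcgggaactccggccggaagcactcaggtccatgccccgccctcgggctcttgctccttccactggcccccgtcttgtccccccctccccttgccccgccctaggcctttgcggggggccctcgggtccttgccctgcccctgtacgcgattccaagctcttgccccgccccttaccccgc
Mafg: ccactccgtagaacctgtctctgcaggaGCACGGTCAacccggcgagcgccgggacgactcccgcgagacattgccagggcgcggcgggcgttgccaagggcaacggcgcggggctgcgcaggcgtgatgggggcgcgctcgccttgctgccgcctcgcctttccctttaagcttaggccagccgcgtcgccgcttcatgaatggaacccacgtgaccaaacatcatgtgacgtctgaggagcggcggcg
Osgin1: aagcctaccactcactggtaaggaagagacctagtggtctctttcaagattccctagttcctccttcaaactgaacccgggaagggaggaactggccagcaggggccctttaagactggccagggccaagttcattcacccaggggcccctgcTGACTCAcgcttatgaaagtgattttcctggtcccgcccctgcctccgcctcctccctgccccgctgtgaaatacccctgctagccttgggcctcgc
Blvrb: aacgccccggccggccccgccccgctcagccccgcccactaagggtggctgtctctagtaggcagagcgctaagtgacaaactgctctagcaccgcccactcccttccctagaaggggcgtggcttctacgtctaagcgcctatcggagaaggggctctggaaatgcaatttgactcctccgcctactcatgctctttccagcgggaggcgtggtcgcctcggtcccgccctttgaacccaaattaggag

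The values are intensities on a linear scale as deposited, and the medians of the arrays differed by at most 0.046 log2. The cells carried the markers of fibroblasts: all 14 listed markers lay above the median gene, against 1 of 12 for macrophages (Cd68), 0 of 6 measured of 9 for erythroid cells, 0 of 7 for endothelial cells and 1 of 7 for epithelial cells (Krt8). The summed intensity of the macrophage markers was 819 to 957 at 32°C and 779.9 to 828 at 37°C, and that of the erythroid markers 486 to 562 at 32°C and 497 to 529 at 37°C. For the epithelial markers it was 779.4 to 1098 at 32°C and 753 to 818 at 37°C, for the endothelial markers 558 to 609 at 32°C and 562 to 595 at 37°C, and for the fibroblast markers 69810.3 to 74923 at 32°C and 73537 to 75250.2 at 37°C. The divergence was negative for 11 of the 14 fibroblast markers. It was positive for 6 of the 7 epithelial, 9 of the 12 macrophage, 4 of the 6 erythroid and 4 of the 7 endothelial ones. Across all 19938 genes it was positive for 10722. None of the markers was past the threshold (limma). The part of these cells in the results was not tested. In bulk RNA, fewer cells of a type and less RNA per cell cannot be told apart.

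4 tests were fitted with limma to the log2 intensity of all genes, with Benjamini-Hochberg adjustment over all of them and a threshold of 0.05, 2-sided. They are the time trend at each temperature (slope per time point over the order of the 7 times), the divergence of 32°C from 37°C (the slope of the difference of matched arrays through 0 at the shared 0 h array, in log2 per time point) and the mean difference over the 6 matched pairs of arrays. A constant level difference from 0.5 h on also gives a divergence other than 0. The divergence called 565 genes (2.83% of those tested), 234 of them higher at 32°C (1.17%) and 331 lower (1.66%). Of the 10 genes, 1 passed it, Blvrb, and none of the 9 others did in either direction.

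**Figure D1:**
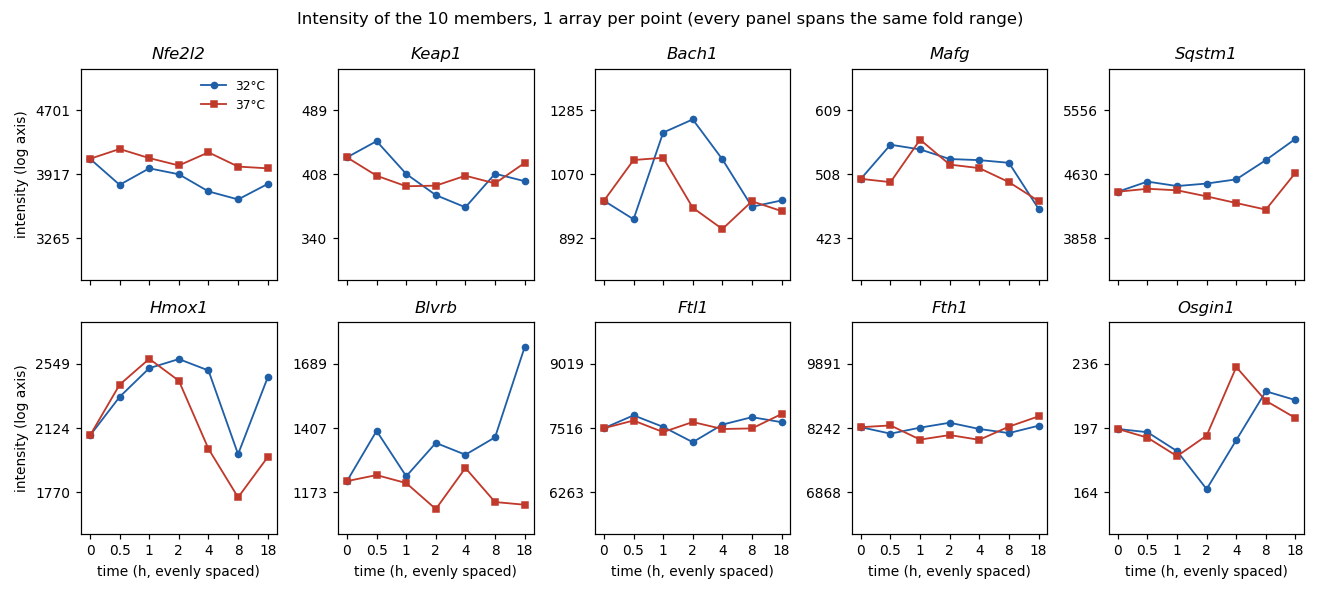
Intensity of each of the 10 genes (log axis, the same fold range in every panel) against time in hours at 32°C (blue circles) and 37°C (red squares), 1 array per point, with the 0 h array drawn in both lines. Blvrb reached 1771 at 18 h at 32°C against 1132 at 37°C, whereas Fth1 stood at 8298 and 8522 and Ftl1 at 7643 and 7823 at that time.

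Nfe2l2, the gene of NRF2 itself, was lower at 32°C in every pair, by a difference that missed the threshold. Its intensity was 3801, 3983, 3917, 3731, 3647 and 3810 at 0.5, 1, 2, 4, 8 and 18 h at 32°C, and 4093, 4208, 4101, 4016, 4168, 4003 and 3983 at 0, 0.5, 1, 2, 4, 8 and 18 h at 37°C. The highest value at 32°C, at 1 h, equalled the lowest at 37°C, at 18 h, and every other value at 32°C lay below the whole 37°C series. Across all genes, 0.476% lay below or level with every 37°C array in this way. All 6 pairs were lower at 32°C, as in 2.92% of genes, with a mean difference of -0.097 ± 0.056 log2 (SD, n = 6 pairs) and a fold of 0.935. This difference missed the threshold after adjustment (limma, adjusted p = 0.353), and so did the divergence of -0.022 ± 0.011 log2 per time point (SE, limma, adjusted p = 0.328). The 3 late arrays at 32°C lay below the 3 late arrays at 37°C, as in 12.9% of genes. The unadjusted 95% interval of the mean difference was -0.19 to -0.0038 log2.

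Keap1, the adaptor that marks NRF2 for degradation, had no single direction. It measured 448, 408, 384, 371, 408 and 399.9 at 0.5 to 18 h at 32°C, and 428, 406, 394, 395, 406, 397 and 421 at 0 to 18 h at 37°C. The 32°C series held both the highest and the lowest value, and 3 of 6 pairs were higher and 3 lower. The mean difference was -0.0019 ± 0.098 log2 (SD, n = 6 pairs), with a 95% interval of -0.11 to 0.10 (limma, adjusted p = 0.991).

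Bach1, the repressor, had its highest array later at 32°C than at 37°C. It was 942, 1205, 1251, 1117, 976 and 994 at 0.5 to 18 h at 32°C, against 993, 1115, 1122, 973, 916, 991 and 964 at 0 to 18 h at 37°C. The highest array was that at 2 h at 32°C and at 1 h at 37°C. The difference of the pair was -0.24 log2 at 0.5 h, 0.36 at 2 h and 0.29 at 4 h, and at 18 h the fold was 1.03. The groups overlapped, and the mean difference of 0.088 ± 0.22 log2 was smaller than its spread (SD, n = 6 pairs; limma, adjusted p = 0.667).

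Mafg, the small Maf partner of both NRF2 and BACH1, measured 552, 545, 530, 528, 524 and 460 at 0.5 to 18 h at 32°C. At 37°C it measured 501, 496, 560.1, 522, 517, 496 and 471 at 0 to 18 h. Its lowest array was that at 18 h in either series, with 0.978-fold at 32°C relative to 37°C at that time. The mean difference was 0.036 ± 0.072 log2 (SD, n = 6 pairs; limma, adjusted p = 0.783).

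Sqstm1, the autophagy receptor that is both regulator and target, was the regulator with the most one-directional course at 32°C. Its intensity was 4534, 4477, 4509, 4563, 4820 and 5120 at 0.5 to 18 h at 32°C, and 4405, 4443, 4423, 4348, 4266, 4187 and 4649 at 0 to 18 h at 37°C. The 18 h array was the highest in either series, and the groups overlapped through that array at 37°C. All 6 pairs were higher at 32°C, as in 4.79% of genes, with a mean of 0.090 ± 0.071 log2 (SD, n = 6 pairs; limma, adjusted p = 0.415) and a late mean over 4, 8 and 18 h of 0.15 ± 0.053 log2 (SD, n = 3 pairs). The divergence was 0.027 ± 0.010 log2 per time point and missed the threshold (SE, limma, adjusted p = 0.195). Kendall's tau with time, tested exactly, was 0.81 at 32°C (exact p = 0.0107, adjusted p = 0.309) and -0.24 at 37°C (exact p = 0.562). No gene of the 19938 passed this exact test after adjustment at either temperature, while 9.18% at 32°C and 3.96% at 37°C had an unadjusted p under 0.05.

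Blvrb, the biliverdin and flavin reductase, had the largest divergence of the 10 genes. It measured 1396, 1227, 1349, 1305, 1371 and 1771 at 0.5, 1, 2, 4, 8 and 18 h at 32°C, and 1211, 1232, 1204, 1118, 1257, 1141 and 1132 at 0, 0.5, 1, 2, 4, 8 and 18 h at 37°C. All 6 pairs were higher at 32°C, as in 4.79% of genes. The series overlapped only through the 1 h array at 32°C, which lay below the 0.5 h and 4 h arrays at 37°C. The 3 late arrays at 32°C were above the 3 late arrays at 37°C, as in 10.3% of genes. At 18 h the fold was 1.56, and relative to the 0 h array Blvrb stood at 1.46-fold at 32°C and 0.935-fold at 37°C after 18 h. The divergence was 0.071 ± 0.016 log2 per time point (SE, limma, adjusted p = 0.0407) and ranked 162 of 19938 genes from the highest divergence down. The time trend at 32°C was 0.060 ± 0.023 log2 per time point (SE, limma, adjusted p = 0.237) and that at 37°C -0.016 ± 0.012 (SE, limma, adjusted p = 0.908). The mean over the 6 pairs was 0.24 ± 0.22 log2 (SD, n = 6 pairs; limma, adjusted p = 0.210), with an unadjusted 95% interval of 0.074 to 0.41. The call of the divergence was lost without the arrays at 0.5, 2, 4, 8 or 18 h (limma, adjusted p = 0.0648, 0.0732, 0.0587, 0.121 and 0.220), with all transcript clusters (0.0669), with ranks (0.0902) and with a separate term for a constant difference at 32°C (0.385). Without the 18 h arrays the divergence was 0.047 and the time trend at 32°C 0.021 log2 per time point, and the mean over the pairs was 0.16 log2.

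Hmox1, the inducible heme oxygenase, was highest at 1 or 2 h in either series, and at 4, 8 and 18 h it was higher at 32°C in every pair, by a divergence that missed the threshold. The intensity was 2321, 2518, 2584, 2502, 1972 and 2453 at 0.5 to 18 h at 32°C, and 2080.2, 2403, 2586, 2429.9, 2003, 1745 and 1956 at 0 to 18 h at 37°C. The highest arrays of the series, at 2 h at 32°C and at 1 h at 37°C, were 2584 and 2586, and the groups overlapped. Over 0.5, 1 and 2 h the mean difference was 0.00014 ± 0.077 log2, and over 4, 8 and 18 h it was 0.27 ± 0.085 log2 (SD, n = 3 pairs each), with folds of 1.25, 1.13 and 1.25 at the 3 late times. The range over time was 0.39 log2 at 32°C, the 0 h array included, and 0.57 log2 at 37°C. The slope over time was 0.0083 ± 0.026 log2 per time point at 32°C (SE, limma, adjusted p = 0.903) and -0.056 ± 0.028 at 37°C (SE, limma, adjusted p = 0.886), so that neither trend passed. The divergence of 0.047 ± 0.012 log2 per time point missed the threshold (SE, limma, adjusted p = 0.0724), as did the mean over pairs of 0.14 ± 0.17 log2 (SD, n = 6 pairs; limma, adjusted p = 0.369).

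The ferritin chains were nearly flat at both temperatures. Ftl1 measured 7793, 7542, 7221, 7591, 7753 and 7643 at 0.5 to 18 h at 32°C, and 7514, 7679, 7431, 7647, 7496, 7509 and 7823 at 0 to 18 h at 37°C. Fth1 measured 8113, 8253, 8369, 8221, 8126 and 8298 at 0.5 to 18 h at 32°C, and 8263, 8305, 7977, 8080.4, 7972, 8277 and 8522 at 0 to 18 h at 37°C. Both genes overlapped throughout. The mean difference was -0.0016 ± 0.048 log2 for Ftl1, with a 95% interval of -0.093 to 0.090 (SD, n = 6 pairs; limma, adjusted p = 0.991). For Fth1 it was 0.0076 ± 0.044 log2, with a 95% interval of -0.083 to 0.098 (SD, n = 6 pairs; limma, adjusted p = 0.959). The 4 other clusters that carry the symbol Ftl1 had divergences between -0.0015 and 0.0089 log2 per time point. The mouse genome holds near-identical copies of the ferritin light chain gene, and whether the probes tell them apart was not tested. The arrays measured mRNA only, so translation of the ferritin mRNAs was not observed.

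Osgin1, the growth inhibitor, had a divergence of -0.013 ± 0.015 log2 per time point (SE, limma, adjusted p = 0.721). It measured 195, 184, 165, 190.2, 219 and 213 at 0.5 to 18 h at 32°C, and 196, 192, 182, 193, 234, 213 and 203 at 0 to 18 h at 37°C. The groups overlapped. Its pairs differed by -0.22 log2 at 2 h and -0.30 at 4 h and by 0.074 at 18 h, and the 18 h fold was 1.05. The mean level of Osgin1, 7.63 log2, was close to that of the median gene, 7.54. It lay below Cd68 (7.65) and Krt8 (7.66), and its signal over background could not be judged.

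**Figure D2:**
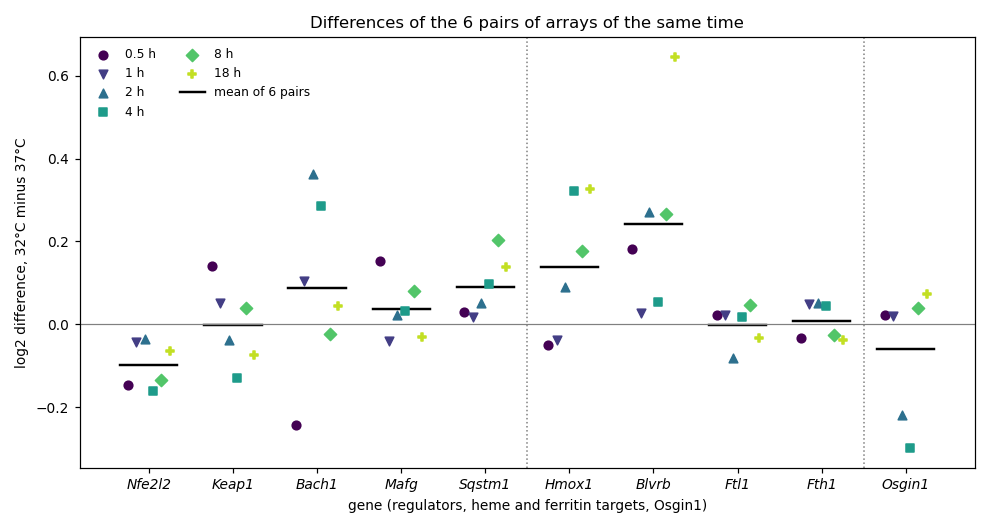
Log2 difference of 32°C minus 37°C (vertical axis) for each of the 10 genes, 1 symbol per matched pair of arrays from 0.5 to 18 h, with the mean of the 6 pairs as a bar. All 6 pairs lie below 0 for Nfe2l2 and above 0 for Sqstm1 and Blvrb, and the 18 h pair of Blvrb stands at 0.65.

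The regulators and the heme and ferritin genes were set side by side by counts and medians, with no test between them. Among the 5 regulators, 3 had a positive and 2 a negative divergence, with a median of 0.0052 log2 per time point and none past the threshold. Among the 4 heme and ferritin targets, 3 were positive and 1 negative, with a median of 0.024 and 1 past the threshold, Blvrb. Across all 19938 genes the median was 0.0020, with 10722 positive. Over the late times the median difference was 0.027 log2 for the regulators, 0.14 for the heme and ferritin targets and 0.0099 for all genes. The median of the targets lies between the 2 heme genes, at 0.32 for Blvrb and 0.27 for Hmox1, and the 2 ferritin chains, at 0.010 for Ftl1 and -0.0068 for Fth1, so it describes none of the 4. Without the 18 h pair the late difference of Blvrb was 0.16 log2, and without the 4 h pair 0.46.

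In the other 3 tests none of the 10 genes passed. The time trend at 32°C called 19 genes (0.0953% of those tested) and, at an unadjusted p under 0.05, 16.5% of all genes and 1 of the 10. The time trend at 37°C called 0 genes (0%) with limma and, at an unadjusted p under 0.05, 5.8% of all genes and 0 of the 10. The mean over pairs called 14 genes (0.0702%) and, at an unadjusted p under 0.05, 13.5% of all genes and 3 of the 10, Nfe2l2, Hmox1 and Blvrb. For the divergence, 18.4% of all genes and 3 of the 10, Sqstm1, Hmox1 and Blvrb, had an unadjusted p under 0.05.

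The list of 25 other NRF2 target genes measured had a median divergence of 0.038 log2 per time point. It shares a gene with the list of heme breakdown and transport described below, and that gene counts in both lists. Of these 25, 8 were past the threshold, all higher at 32°C, against 1.17% of all genes called higher. They were Srxn1 (sulfiredoxin), Cbr3 (a carbonyl reductase), Nqo1 (a quinone reductase), Gsta4 (a glutathione transferase), Gclc (a subunit of glutamate-cysteine ligase), Txnrd1 (thioredoxin reductase), Gsr (glutathione reductase) and Pgd (of the pentose phosphate pathway). The largest of their divergences was that of Nqo1, at 0.19 ± 0.028 log2 per time point (SE, limma, adjusted p = 0.0148), with 2430.3 at 32°C against 785 at 37°C at 18 h. In the order of the 8 by size, Blvrb would stand between Gsta4, at 0.072, and Gclc, at 0.061, and Hmox1 after Pgd, at 0.051 (limma, adjusted p = 0.0465). This order leaves out the genes of the list that missed the threshold. The largest divergence among those was that of Slc7a11, at 0.12 ± 0.031 (SE, limma, adjusted p = 0.0616). The differences between these genes were not tested. The list was chosen with earlier results of these data known. Nqo1, Srxn1, Gclc and Txnrd1 are among the genes that the paper itself reported from these arrays, so the count of 8 is not independent support.

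None of the relatives and partners of the regulators passed the divergence, in which 18.4% of all genes had an unadjusted p under 0.05. Of the 6 other CNC and small Maf factors, 0 passed with limma and 1 had an unadjusted p under 0.05, Maff, another small Maf, at 0.030 log2 per time point (limma, adjusted p = 0.207). Of 12 genes of KEAP1 and NRF2 turnover, 0 passed with limma and 2 had an unadjusted p under 0.05. These were Dpp3, a KEAP1-binding peptidase, at 0.035 (limma, adjusted p = 0.177), and Trim21, an E3 ligase that binds SQSTM1, at -0.054 (limma, adjusted p = 0.246).

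Around the heme and ferritin genes, 8 of 9 other genes of heme breakdown and transport had a positive divergence. Their median was 0.023 log2 per time point. Across all 19938 genes, 10722 were positive and 18.4% had an unadjusted p under 0.05. Of the 9, 0 passed with limma and 2 had an unadjusted p under 0.05. These were Blvra, the other biliverdin reductase, at 0.040 (limma, adjusted p = 0.103), and Pgrmc2, a heme-binding membrane protein, at 0.039 (limma, adjusted p = 0.173). Hmox2, the constitutive heme oxygenase, stood at 0.025 (limma, adjusted p = 0.369). Of 10 heme synthesis genes measured, 0 passed and 3 had an unadjusted p under 0.05. Urod, an enzyme of the middle of the pathway, was at 0.041 (limma, adjusted p = 0.175), whereas Uros, the enzyme before it, was at -0.056 (limma, adjusted p = 0.206) and Slc25a38, a mitochondrial glycine carrier, at -0.040 (limma, adjusted p = 0.162). Of 20 genes of iron uptake, storage and export measured, 10 were positive, 10 negative and 0 passed with limma, and 4 had an unadjusted p under 0.05. The mitochondrial iron carriers Slc25a37 and Slc25a28 stood at -0.054 and 0.039 (limma, adjusted p = 0.0877 and 0.123), Slc39a8, a metal importer, at 0.048 (limma, adjusted p = 0.123) and Tfrc, the transferrin receptor, at 0.046 (limma, adjusted p = 0.267).

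**Figure D3:**
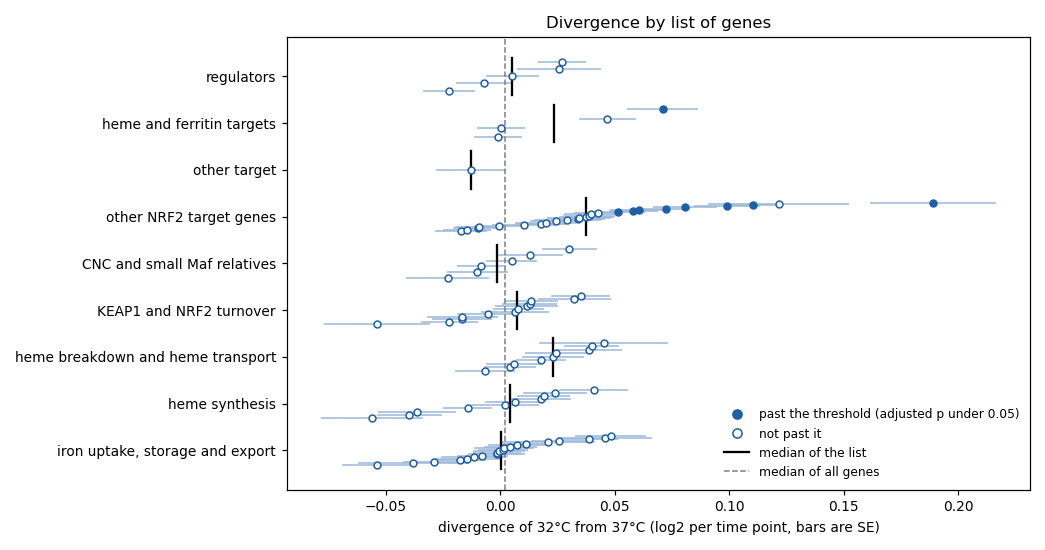
Divergence of 32°C from 37°C (log2 per time point, bars are SE) of every measured gene of each list, with filled points past the threshold, the list's median as a black tick and the median of all genes as a dashed line. Of the 10 genes in the top 3 rows only Blvrb is filled, at 0.071, whereas 8 of 25 other NRF2 targets are. All lists were chosen with earlier results of these data known, and 1.17% of all genes were called higher.

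Across the 13 arrays, which share the 0 h array and the times, Blvrb correlated with Sqstm1 (Pearson r = 0.795, n = 13 arrays) and Hmox1 with Bach1, its repressor (r = 0.662). Bach1 and Hmox1 ran opposite to Osgin1 (r = -0.816 and -0.718), and Nfe2l2 opposite to Sqstm1 (r = -0.649). With Nfe2l2, r was -0.046 for Hmox1 and 0.093 for Keap1. Among 9968 genes above the median signal, those most like Nfe2l2 were Fpgt, Bptf, Asxl2, B3galnt2 and Uprt, with r between 0.877 and 0.893. Those most like Hmox1 were Bag2, Xylt1, Plk2, Frmd6 and Vegfa, with r between 0.819 and 0.870.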

How the data were processed

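Expression was measured with 13 Affymetrix Mouse Gene 1.0 ST arrays. The authors deposited intensity values on a linear scale for 28853 transcript clusters. The sources used here do not give how probes were summarized and normalized, or any hybridisation batch. No detection calls were used. The medians of the arrays differed by 0.046 log2, so values were log2 transformed as deposited. Of the 23410 clusters in the platform annotation used, 1621 with several symbols were left out, and for 999 of the 19938 genes the cluster with the highest mean was used. Fits used lmFit and eBayes of limma 3.58.1 in R 4.3.3, and were tested on simulated data. Divergence and mean difference had time point as a block. Kendall's tau was tested exactly (smallest 2-sided p 0.000397). P-values measure the scatter around lines or between pairs, as no array had a replicate. The 10 genes and all lists were chosen with earlier results of these data known. All 10 genes were named. Of each other list, the genes past the threshold and up to 4 with the smallest p could be named, and the 5 genes most like Nfe2l2 and Hmox1. Slc7a11 was named besides, for the size of its divergence. Alternatives were normalization, ranks, a signal filter, all clusters, the variance prior, the time scale, a separate 32°C term and leaving out each time. Figures were drawn with matplotlib 3.10.9.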

Additional observations from a re-analysis of the deposited data

Results flagged for a closer look

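Blvrb passed the threshold of the divergence, at 0.071 ± 0.016 log2 per time point (SE, limma, adjusted p = 0.0407). All 6 of 6 pairs were higher at 32°C, as in 4.79% of genes, and these pairs are the same values that the test used. A constant level difference also enters this test, so it does not show that the courses over time differed. The divergence of Blvrb is the 1 result of the 10 genes in which a test of the difference between the temperatures passed. The 18 h pair carries the largest difference, 0.65 log2. The call was lost without any 1 of the 0.5, 2, 4, 8 and 18 h pairs (limma, adjusted p between 0.0587 and 0.220), and kept without the 1 h pair (0.0412). It was also lost with all transcript clusters, with ranks and with a separate term for a constant difference at 32°C (limma, adjusted p = 0.0669, 0.0902 and 0.385).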

How the results depend on the processing

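Blvrb stayed higher at 32°C in every alternative run for the divergence, but its call was lost in 8 of the 14 (limma, adjusted p between 0.0587 and 0.385), which stand beside its values in the results. The run without the 0 h array, counted among the 14, could not change the divergence, because that array has no match at 32°C. Its result was the same as in the main fit (limma, adjusted p = 0.0407). The 10 genes past the threshold of the divergence numbered 0 with all clusters, ranks or a separate 32°C term, 2 with genes above the median signal (Hmox1 and Blvrb), 3 with an intensity trend in the variance prior (Sqstm1, Hmox1 and Blvrb), and 0 to 1 with 1 time left out. With that prior the adjusted p was 0.0315 for Hmox1 and 0.0388 for Sqstm1. Over all genes, the 565 of the divergence became 791 when only genes above the median signal were tested. They became 829 with the trend in the prior, so calls over all genes rose in these settings too. The count was 359 with all clusters, 167 with ranks, 4 with a separate 32°C term and 40 to 627 with 1 time left out. The lowest was without 8 h, with 58 without 4 h and 134 without 18 h. The 19 of the time trend at 32°C became 2 with all clusters, 211 above the median signal, 48 with the trend in the prior, 95 on log2 of hours, 52 after quantile normalization, 2 with ranks and 2 to 23 with 1 time left out. The 14 of the pairs became 0 with all clusters, quantile normalization or ranks, 32 with the trend in the prior and 0 to 7 with 1 time left out. None of the 10 genes passed the time trend at 32°C or 37°C or the mean over pairs in any alternative run.

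Signs turned only for values that had not passed. The time trend of Bach1 at 32°C became 0.0073 log2 with quantile normalization and 0.081 rank units with ranks. The divergence of Keap1 became 0.0010 log2 and 0.013 rank units, and its mean over pairs 0.015 log2 and 0.19 rank units, in the same settings. The divergence of Fth1 became -9.5e-05 on log2 of hours. With a separate 32°C term, the divergence was 0.00034 for Nfe2l2, -0.016 for Mafg, -0.0073 for Fth1 and 0.0066 for Osgin1. In other Ftl1 clusters, the divergence was 0.00055 and 0.0089, the mean over pairs 0.0030, 0.0040 and 0.037, and the trend at 37°C -0.0018. With 1 time left out, the trend at 32°C ran from -0.020 to 0.034 for Hmox1, -0.0014 to 0.0026 for Fth1, -0.020 to 0.019 for Bach1, -0.042 to 0.0028 for Mafg and -0.00039 to 0.0070 for Ftl1. That at 37°C ran from -0.015 to 0.0097 for Keap1, -0.026 to 9.2e-05 for Mafg, -0.016 to 0.0072 for Sqstm1, -0.0019 to 0.0070 for Ftl1 and -0.0042 to 0.0093 for Fth1. The divergence ran from -0.0020 to 0.0048 for Fth1, -0.0047 to 0.0022 for Ftl1 and -0.029 to 0.00055 for Osgin1, and the mean over pairs from -0.0010 to 0.017 for Fth1, -0.031 to 0.024 for Keap1 and -0.011 to 0.015 for Ftl1. The causes were not tested.

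Arrays were paired by time point, which is the block in the divergence and in the mean over pairs, and there were no replicate numbers to pair by. Signal over background could not be judged, as no detection calls were used, so the floor of the values is unknown. The 13 arrays and the lack of replicates mean that differences between single arrays, the 18 h value of Blvrb included, carry no error of their own.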
